A study of Homo sapiens with 44 samples.

Results

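The comparison described here set H1 cultures, a human embryonic stem cell line, after 30 days of directed cardiac differentiation against cultures of the same line after 9 days, across all expressed genes. The wells were taken by their labelled day, 3 wells at day 30 (numbered 1, 3 and 10) and 5 wells at day 9 (numbered 1, 2, 3, 4 and 10), which is 8 of the 44 wells of the series. All of these wells carried the laminins LN-521 and LN-221, basement-membrane proteins that anchor cells through integrins, and all had received the same inducers. Those were CHIR99021 at day 0, an inhibitor of the kinase GSK3 that switches on Wnt signalling, and IWP2 at day 3, which blocks the release of Wnt proteins. Day 9 wells were in RPMI medium with B27 lacking insulin, whereas day 30 wells had been in RPMI with the complete CTS B-27 supplement since after about day 10. Time in culture and the change of supplement therefore cannot be told apart. H1 is a single established line, the labels describe no sorting of cells, and each library is RNA of a whole well.

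In a heart that forms and then grows, muscle cells first assemble thin, poorly aligned myofibrils and divide often. They later exchange early isoforms of contractile proteins for adult ones, leave the cell cycle, and move from glycolysis towards burning fatty acids. MYH7 and MYL2 encode the slow heavy chain and the regulatory light chain of ventricular myosin, MYH6 the heavy chain typical of atrial and early muscle, and TNNI3 the adult cardiac troponin I. Wnt-based protocols also yield other cells of the early embryo, among them endothelial cells, which carry PECAM1, and yolk sac or liver-type endoderm, which makes the lipoprotein APOB.

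Library totals were 23903377 to 31040870 counts at day 9 and 27411186, 23661479 and 11715812 counts in day 30 wells 1, 3 and 10. Well 10 of day 30 also had the lowest RNA integrity number, 7.4 against 8.9 to 10 in the other 7 wells. The 8 libraries were spread over 5 sequencing lanes, and lanes 2 and 4 held wells of both days. Genome-wide levels correlated across genes with Spearman's rho of 0.975 to 0.986 within day 9, 0.919 to 0.958 within day 30 and 0.899 to 0.944 between the days. The biological coefficient of variation was 25.3% at day 9 and 58.5% at day 30, or 46.9% for day 30 without well 10. Wells are labelled as biological replicates, but nothing says whether they came from separate differentiations, so p values measure spread between wells only. For the gene tests that spread came from 1 model of all 44 libraries, with a shared coefficient of 30.9%, below that of day 30. Gene p values can therefore understate the spread of the day 30 wells. Levels are TMM-scaled counts relative to library size (CPM), well values are given in the order 1, 2, 3, 4, 10 for day 9 and 1, 3, 10 for day 30, and adjusted p values for genes come from the edgeR quasi-likelihood test, corrected by Benjamini-Hochberg over 22955 genes. A change is on the log2 scale throughout. The SE of a gene is its absolute change divided by the square root of the F statistic of that test, so it rests on the same shared model.

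By 1 month the cultures had gained ventricular MYH7 and MYL2, other sarcomere transcripts and most small heat shock transcripts. CD36 and FABP3, which carry fatty acids, also rose. Liver-type endoderm, most endothelial and many early developmental transcripts had fallen. Not all mature muscle transcripts were called higher. Of 20 fatty acid genes 6 rose, 1 fell and 13 were not called, where 18.9% of all genes tested were called. The log2 ratio of TNNI3 to TNNI1 differed by -0.0795. A gene was called at an adjusted p under 0.05 and a change of at least 2-fold, and 4347 of 22955 genes (18.9%) were called, 2224 higher (9.69%) and 2123 lower (9.25%). Protein-coding genes made up 3422 of them, 20.3% of those tested, while 258 lincRNAs and 235 antisense genes made up 16.8% and 16.4% of theirs. The change was at least 4-fold for 1117 genes that rose and 961 that fell. CPM ranges of the groups did not overlap for 3325 called genes (14.5% of all tested), and for the other 1022 they did. Over all 22955 genes, called or not, the ranges did not overlap for 5898 (25.7%), so separation alone is common. Statements on overlap below refer to CPM, and in TPM the groups overlapped for some of the same genes, MYH6, MYOM2, DSG2, DSC2, VWF, CDC20, KLF15 and PTBP1 among them. On TPM with a pseudocount of 1, limma called 1442 genes with 66.5% higher in place of 51.2%, and the median gene lay 0.25 higher on the log2 scale there. Protein-coding genes held 15.6, 17.9, 29.7, 36.5 and 18.5% of TPM at day 9 and 18.0, 37.8 and 31.1% at day 30. The RNAs RN7SL1 and RN7SL2 held 26.2 to 47.6%. TPM was not rescaled for these uneven shares, and their part in the TPM overlaps and lost calls was not tested. A limma fit that gave each group its own variance called 2239 genes, and 2194 of these were among the 4347. In that fit 44 of the 139 called genes named here were not called, and the closing section lists them. A fit of the 8 wells alone called 3348 genes, 3209 of them among the 4347.

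The wells of day 30 did not contribute equally to these calls. In 199 of the 2224 risen genes (8.95%) well 3 was at least 4 times both other day 30 wells, in 206 (9.26%) well 10 was, and in 14 (0.629%) well 1 was. Without well 1, 3 or 10 of day 30, 731, 1093 and 857 of the calls were lost. In every fit that left out 1 of the 8 wells, 2366 genes stayed called. Of 414 genes on 28 lists of heart, metabolic, cell cycle and other-lineage genes, 410 were tested, and 100 rose and 85 fell. The counts of each list below stand beside 9.69% higher and 9.25% lower over all genes. Those of the glycolysis, heart hormone and receptor, respiratory chain, lipid synthesis and insulin-repressed lists were near or below these shares. They set none of these lists apart, and in short lists a single member moves a share by several points. Because 51 of the genes named here overlap another tested gene and strand-aware counting is not given in the sources used here, reads at such loci may be shared.

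**Figure D1:**
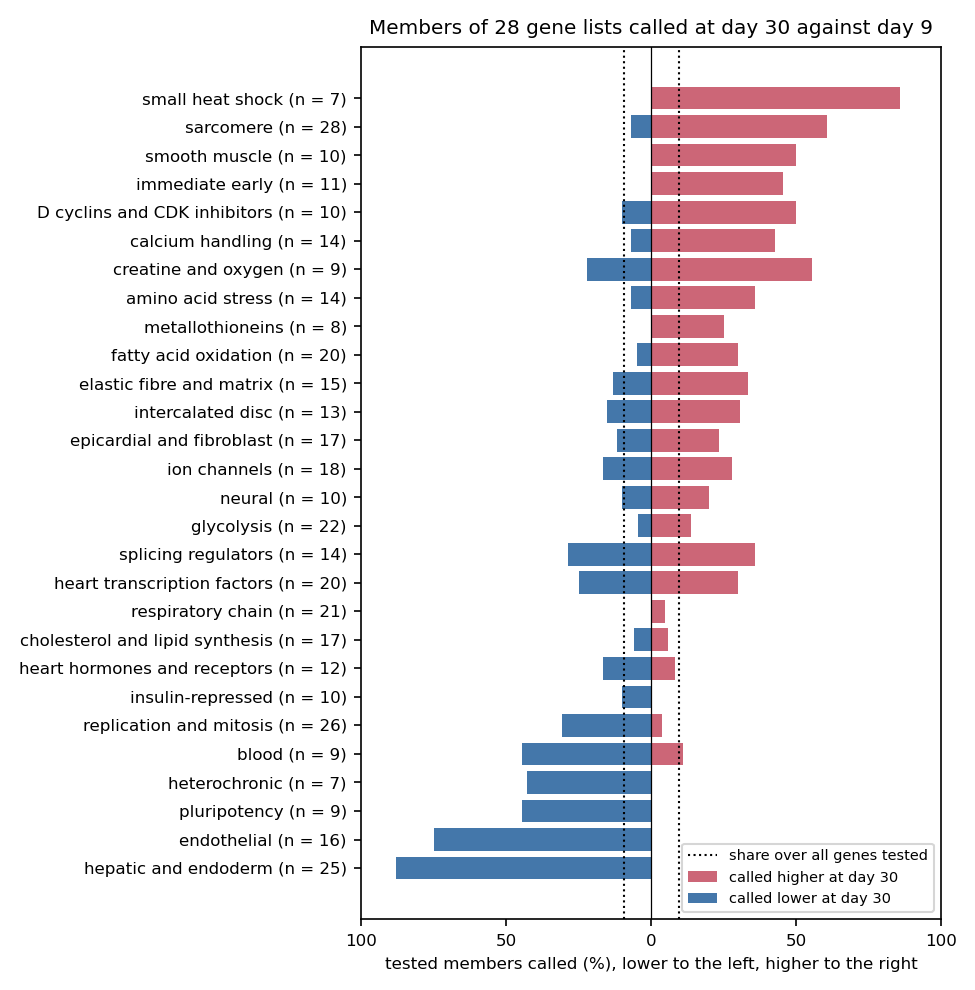
Percentage of the tested members of each of 28 gene lists called higher at day 30 (red, to the right) or lower (blue, to the left) than at day 9, with the number tested in brackets and dotted lines at the shares over all genes, 9.69% higher and 9.25% lower. Small heat shock and sarcomere lists lie farthest to the right, and hepatic and endothelial lists farthest to the left.

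Of the sarcomere list, 17 of 28 tested members rose and 2 fell, with a median log2 change of 1.47 against 0.07 over all genes. MYH7 (ENSG00000092054, chromosome 14, 23412738 to 23435718, GRCh38) had 74.04, 32.02, 122, 254 and 247 CPM at day 9 and 11367, 7586 and 3443 CPM at day 30. Every day 30 well stood far above the highest day 9 well, with well 10 the lowest of the group (log2 change 5.68, SE 0.98, adjusted p 2.2e-05). MYL2 (ENSG00000111245, chromosome 12, 110910819 to 110920722) had 0.114, 0.269, 0.472, 0.553 and 1.03 CPM at day 9 and 265, 33.1 and 22.6 CPM at day 30. The ranges were far apart, yet well 1 held several times more MYL2 than the other day 30 wells (log2 change 7.80, SE 0.65, adjusted p 1.2e-11). Without well 1 the change was 5.84 with an adjusted p of 1.2e-10.

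TNNI3 (ENSG00000129991, chromosome 19, 55151767 to 55157773) had 26.6, 16.4, 17.1, 21.5 and 47.1 CPM at day 9 and 99.2, 33.99 and 70.6 CPM at day 30. Well 3 of day 30 lay below day 9 well 10, so the groups overlapped, and the change of 1.40 (SE 0.50) passed only narrowly with an adjusted p of 0.029. It did not pass without day 30 well 1 (adjusted p 0.17) or well 10 (adjusted p 0.067), or without day 9 well 2, 3 or 4 (adjusted p 0.068, 0.064 and 0.056). MYH6 ran the other way, with 7457, 4203, 9090.0, 7618 and 7384 CPM at day 9 and 1931, 1997 and 4021 CPM at day 30. All day 30 wells were below all day 9 wells (log2 change -1.43, SE 0.42, adjusted p 0.0087), although the call was lost without day 30 well 1 (adjusted p 0.054) or well 3 (adjusted p 0.055), with a variance per group and on TPM. MYOM2, which encodes an M-band protein, also fell, from 48.5, 38.5, 44.4, 42.7 and 33.4 CPM to 7.17, 12.6 and 9.22 CPM (log2 change -2.10, SE 0.55, adjusted p 0.0031), a call lost with a variance per group (adjusted p 0.054) and with limma on log2(TPM + 1), called TPM + 1 below (log2 change -0.74, adjusted p 0.15). Its mean was 48.02 ± 28.7 CPM (SD, n = 3) in the day 90 wells.

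CSRP3 and TCAP encode Z-disc proteins that respond to stretch. CSRP3 had 76.1, 33.5, 57.8, 55.7 and 132 CPM at day 9 and 326, 2249.8 and 452 CPM at day 30 (log2 change 3.83, SE 0.59, adjusted p 3.6e-06). Well 3 was the highest by far, and the change was 2.44 without it. TCAP rose from 13.2, 6.63, 9.32, 14.1 and 25.02 to 127, 266 and 144 CPM (log2 change 3.71, SE 0.46, adjusted p 5.7e-08), and its ranges did not overlap. ACTA1, the skeletal muscle actin that fetal hearts also use, had 41.6, 22.7, 95.99, 85.5 and 166 CPM and then 1329, 337 and 51.1 CPM. Well 10 lay within the day 9 range, and the log2 change of 2.80 became 1.21 (adjusted p 0.096) without well 1. Of the general muscle markers, TNNT2 (troponin T) rose from 996 ± 255 to 2320.3 ± 413 CPM (SD, n = 5 and n = 3, log2 change 1.22, adjusted p 0.0004) and ACTN2 (alpha-actinin) by 1.59 (adjusted p 0.0016). TTN, the giant spring protein, changed by 1.53 (adjusted p 0.0097), a call lost without day 30 well 1 (adjusted p 0.11). Atrial light chain MYL7 changed by 0.16 (adjusted p 0.81), with 1062 to 4758 CPM at day 9 and 917 to 4253 CPM at day 30.

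**Figure D2:**
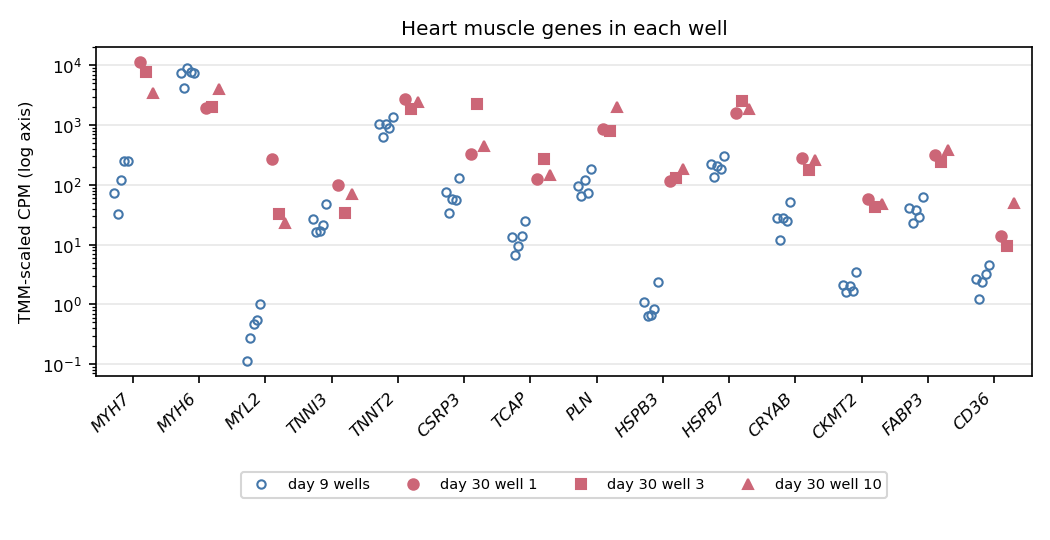
TMM-scaled CPM on a log axis for 14 heart muscle genes, with open blue circles for the 5 day 9 wells and filled red symbols for the 3 day 30 wells (circle well 1, square well 3, triangle well 10). MYH7, MYL2, HSPB3 and CKMT2 are separated widely between the days, whereas TNNI3 overlaps and MYH6 is lower at day 30.

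Ratios within a well compare isoforms directly and were taken from TPM, which accounts for transcript length, with 0.1 added. The log2 ratio of MYH7 to MYH6 was -6.69, -7.03, -6.28, -4.97 and -4.97 at day 9 and 2.48, 1.81 and -0.294 at day 30. MYH7 was thus the more abundant in wells 1 and 3 of day 30 and close to equal with MYH6 in well 10, while MYH6 led in every day 9 well. The mean difference was 7.32 (8.14 without day 30 well 10), with a two-sided exact permutation p of 0.0357, the smallest that 3 against 5 wells can give, and an adjusted p of 0.0446 over 5 tests. Within lane 2 the difference was 7.45 and within lane 4 it was 4.68, with 1 well a day in each. The 2 genes are close paralogues lying side by side, which leaves the assignment of some reads uncertain.

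The ratio of MYL2 to MYL7 went from -12.6 ± 0.486 (SD, n = 5) to -5.96 ± 1.73 (SD, n = 3), a difference of 6.62 (exact permutation p 0.0357, adjusted p 0.0446) that was 8.03 within lane 2 and 4.61 within lane 4. It was 4.91 with 1 added to TPM in place of 0.1, and 5.93 and 7.58 without day 30 well 1 and 10. MYL7 still exceeded MYL2 in every day 30 well, most closely in well 1 at -4.58. MYL3, the ventricular essential light chain, gained on its atrial counterpart MYL4 by 0.968 (0.576 without day 30 well 10, exact permutation p 0.0357, adjusted p 0.0446), with values of -2.23, -2.05, -2.02, -2.40 and -2.13 at day 9 and -1.32, -1.86 and -0.412 at day 30. MYL3 rose on the CPM scale (log2 change 1.98, SE 0.42, adjusted p 0.00035) and MYL4 did not pass (log2 change 0.87, adjusted p 0.089), though it was called on TPM and without day 9 well 10 or day 30 well 3. The ratio of adult TNNI3 to fetal TNNI1 showed no such change. It was -3.91, -3.84, -4.01, -3.30 and -3.58 at day 9 and -3.49, -4.32 and -3.61 at day 30, a difference of -0.0795 with an exact permutation p of 0.786. Both troponin I genes rose, TNNI1 by 1.14 (adjusted p 0.018, lost without day 30 well 1 at 0.14), and the fetal form still led in all 8 wells. In the 3 day 90 wells the ratio was -1.86 ± 0.583 (SD, n = 3).

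**Figure D3:**
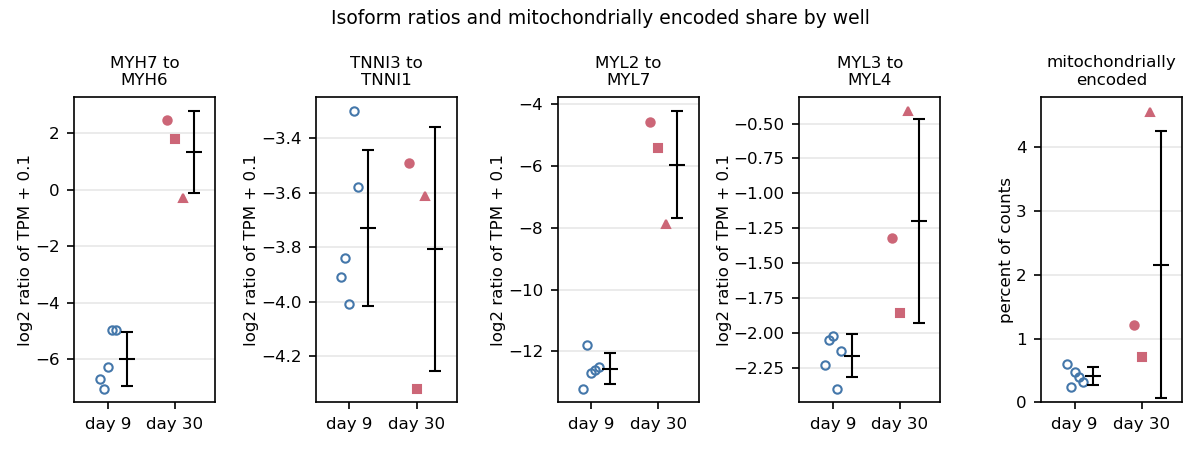
Log2 ratios of TPM + 0.1 for 4 isoform pairs and the mitochondrially encoded percentage of counts in each well, open circles for day 9, filled symbols for day 30 (circle well 1, square well 3, triangle well 10), with mean ± SD at the side (n = 5 and n = 3). All pairs but TNNI3 to TNNI1 are separated between the days, and well 10 of day 30 has the lowest MYH7 to MYH6 ratio and the highest mitochondrially encoded share of its group.

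Calcium handling genes rose in 6 of 14 cases and fell in 1, with a median of 0.95. PLN, the brake on the sarcoplasmic reticulum calcium pump, had 97.2, 64.98, 119.7, 73.2 and 187 CPM at day 9 and 858, 794 and 2007 CPM at day 30. It was highest in well 10 and above the day 9 range in all 3 wells (log2 change 3.49, SE 0.37, adjusted p 3.5e-09; 2.90 without well 10). The pump itself, ATP2A2, did not pass, with 392 to 1037 CPM at day 9 and 796 to 1124 CPM at day 30 (log2 change 0.26, adjusted p 0.56). CACNA1C, the L-type calcium channel, rose by 2.13 (SE 0.32, adjusted p 1.9e-06), the release channel RYR2 by 1.44 (adjusted p 0.0019) and the exchanger SLC8A1 by 1.42 (adjusted p 0.0019). FKBP1B, which binds that release channel, fell from 16.2, 15.2, 14.4, 13.7 and 20.9 to 7.98, 5.51 and 5.39 CPM (log2 change -1.34, SE 0.23, adjusted p 1.8e-05), with no overlap. S100A1 was called higher (log2 change 1.47, adjusted p 0.047), but its day 30 levels were 0.204, 0.324 and 2.42 CPM against 0.1302 to 0.455 CPM at day 9. Only well 10 lay above the day 9 range, and without it the change was -0.35 (adjusted p 0.71). Its call was also lost without day 9 well 2, 3 or 4 (adjusted p 0.07, 0.07 and 0.11).

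Ion channels split, with 5 of 18 higher, 3 lower and a median of 0.41. KCNQ1, a potassium channel of repolarization, rose by 1.87 (adjusted p 1.1e-05) and KCNJ8, part of the ATP-sensitive channel, by 1.64 (adjusted p 0.00011). The transient outward channel KCND3 fell by 2.05 on the log2 scale (adjusted p 0.012, lost without day 30 well 1 at 0.089 or day 9 well 2 at 0.052; -2.87 without well 10). KCNJ2, which sets the resting potential of working muscle, did not pass, at 1.59, 2.66, 2.44, 3.03 and 5.903 CPM and then 1.51, 15.98 and 2.97 CPM (log2 change 1.13, adjusted p 0.097). Well 3 alone was high there, and the gene was called without day 30 well 1 (log2 change 1.59, adjusted p 0.024) or day 9 well 10. The pacemaker channel HCN4 did not pass either, with 54.6 to 82.7 CPM at day 9 and 87.7 to 123 CPM at day 30.

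In the intercalated disc, the junction between muscle cells, 4 of 13 genes rose and 2 fell. CTNNA3 (alpha-T-catenin) rose by 1.37 (SE 0.29, adjusted p 0.00033) and GJA5, the connexin of atrial and conduction cells, from 16.4, 12.4, 19.2, 19.9 and 15.8 to 57.9, 19.5 and 67.4 CPM (log2 change 1.53, SE 0.32, adjusted p 0.00037). Well 3 of GJA5 stayed within the day 9 range. The desmosomal cadherins fell together, DSG2 from 216, 287, 218, 208 and 207 to 98.5, 107 and 114 CPM (log2 change -1.09, adjusted p 9.9e-07) and DSC2 by 1.19 on the log2 scale (adjusted p 3.5e-06). Neither overlapped between the days, although DSG2 came to -0.99 without day 9 well 2. On TPM + 1 neither was called, at -0.71 (adjusted p 0.12) for DSG2 and -0.80 (adjusted p 0.12) for DSC2. XIRP1 and XIRP2, actin-binding repeat proteins, were called higher at 2.21 (adjusted p 0.0023) and 4.00 (adjusted p 0.00013). Both rested on well 3, at 2498 and 17.6 CPM, and without it the changes were 0.39 (adjusted p 0.62) and 1.88 (adjusted p 0.079). GJA1, the connexin of working ventricle, changed by 0.70 (adjusted p 0.035), under the 2-fold limit.

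Of 20 transcription factors of the heart 6 rose and 5 fell. HEY2, a Notch target of compact ventricular muscle, had 24.7, 14.8, 20.8, 18.5 and 21.5 CPM at day 9 and 122, 61.6 and 159.7 CPM at day 30 (log2 change 2.51, SE 0.29, adjusted p 1.6e-08). All 3 day 30 wells lay above the day 9 range, well 3 least. MEF2A rose by 1.68 (SE 0.21, adjusted p 9.8e-08). TBX3, a repressor kept in conduction tissue, fell from 89.6, 96.7, 142, 150.0 and 94.7 to 9.81, 21.7 and 11.4 CPM (log2 change -3.00, SE 0.31, adjusted p 1.4e-09), and its relative TBX2 fell by 1.90 on the log2 scale (adjusted p 0.00033). Neither gene overlapped between the days. The progenitor factor ISL1 fell by 1.84 (adjusted p 0.0012) and the atrial factor NR2F1 by 2.17 (adjusted p 0.016), the latter lost without day 30 well 1 (adjusted p 0.091) or well 10 (adjusted p 0.051) and at -2.99 without well 3. SHOX2, of the sinus node, and TBX18 were called higher, at 2.75 (adjusted p 0.026) and 1.89 (adjusted p 0.005). SHOX2 lost its call without day 30 well 10 (adjusted p 0.22) or without day 9 well 1, 4 or 10 (adjusted p 0.053, 0.056 and 0.057), and TBX18 without day 30 well 1 (log2 change 0.84, adjusted p 0.26). NKX2-5, a core cardiac factor present throughout, had 76.4 to 182 CPM at day 9 and 163 to 175 CPM at day 30 (log2 change 0.45, adjusted p 0.37).

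Among hormones and receptors, 1 of 12 rose and 2 fell, near the shares over all genes for so short a list. NPR1, the receptor for the atrial and B-type natriuretic peptides, had 30.9, 41.6, 27.1, 34.2 and 27.2 CPM at day 9 and 6.19, 2.73 and 3.67 CPM at day 30 (log2 change -2.93, SE 0.52, adjusted p 3.5e-05). The angiotensin receptor AGTR1 fell by 2.76 on the log2 scale (adjusted p 0.0024; -4.05 without well 3). The peptides themselves did not pass. NPPA had 412, 183, 453, 683 and 1407 CPM at day 9 and 802, 65.02 and 201 CPM at day 30 (adjusted p 0.39), and NPPB covered 22.1 to 367 CPM at day 9 and 45.6 to 177 CPM at day 30 (adjusted p 0.66). The groups overlapped for both. Without day 30 well 1 NPPA was called lower (log2 change -2.25, adjusted p 0.04). CORIN, the protease that activates these peptides, rose by 1.03 (adjusted p 0.0023), a call lost on the fold limit without day 30 well 3 or 10 or day 9 well 2 (log2 change 1.00, 0.86 and 0.89).

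Fatty acid genes rose in 6 of 20 cases and fell in 1, with a median of 0.30 against 0.07 over all genes. The other 13 did not pass. CD36, the fatty acid transporter, had 2.62, 1.25, 2.399, 3.29 and 4.58 CPM at day 9 and 13.7, 9.59 and 50.4 CPM at day 30 (log2 change 3.11, SE 0.38, adjusted p 6.2e-08). Well 10 was the highest, and without it the change was 2.02 with an adjusted p of 2.3e-05. FABP3, the heart fatty acid binding protein, rose from 41.6, 23.3, 37.7, 29.2 and 61.9 to 314, 241 and 388 CPM (log2 change 3.02, SE 0.27, adjusted p 4.6e-11). PPARGC1A, a regulator of mitochondrial gene expression, rose by 1.77 (adjusted p 0.00016; 1.08 without well 3), ETFDH by 1.57 (adjusted p 8.3e-11) and CPT1A by 1.54 (adjusted p 3e-05). CPT1B, the muscle form of that carnitine transferase, did not pass at 16.03 to 27.3 CPM and 8.59 to 25.1 CPM (log2 change -0.22, adjusted p 0.58). LPL was called lower (log2 change -2.20, adjusted p 0.045), with 6.56, 5.62, 5.54, 8.004 and 52.3 CPM at day 9 and 2.69, 3.38 and 4.14 CPM at day 30. Well 10 of day 9 stood far above the rest, the change was -0.93 (adjusted p 0.36) without it, and the call was also lost without day 30 well 1, 3 or 10 (adjusted p 0.12, 0.1 and 0.076).

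Glycolytic genes rose in 3 of 22 cases (6 without day 30 well 10, and 8 on TPM + 1) and fell in 1. The counts of the main fit were near or below the shares over all genes. The 1 that fell was SLC2A3, a high-affinity glucose transporter, which had 1416, 1591, 1874, 1587 and 1799.7 CPM at day 9 and 335, 558 and 332 CPM at day 30 (log2 change -2.02, SE 0.34, adjusted p 1.6e-05), with no overlap. SLC2A1 did not pass (log2 change 0.47, adjusted p 0.23). The muscle enolase ENO3 rose by 1.39 (adjusted p 0.0019), LDHA by 1.26 (adjusted p 2.5e-05) and PFKP by 1.2 (adjusted p 5.3e-05). The PFKP call was lost on the fold limit without day 30 well 3 (log2 change 1.0). Of 21 nuclear-encoded respiratory chain genes 1 rose (3 on TPM + 1), COX7A1, the heart and muscle subunit of cytochrome oxidase, which had 0.0337 to 0.898 CPM at day 9 and 2.97 to 3.57 CPM at day 30 (log2 change 3.09, SE 0.80, adjusted p 0.0029). The other muscle subunit, COX6A2, did not pass (log2 change 0.43, adjusted p 0.52). Mitochondrially encoded genes held 0.605, 0.240, 0.481, 0.402 and 0.317% of counts at day 9 and 1.21, 0.717 and 4.56% at day 30, a difference of 1.75 percentage points (exact permutation p 0.0357, adjusted p 0.0446). The difference within lane 2 was 0.808 points and within lane 4 it was 4.24 points, where well 10 has the low RNA integrity, and the part of RNA quality in it was not tested. Without well 10 it was 0.554 points. As a share of protein-coding counts the groups overlapped and the adjusted p was 0.0893.

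Creatine and oxygen genes rose in 5 of 9 cases and fell in 2. CKMT2, the muscle mitochondrial creatine kinase, had 2.12, 1.62, 2.01, 1.66 and 3.42 CPM at day 9 and 57.1, 42.05 and 48.1 CPM at day 30, even among the wells (log2 change 4.51, SE 0.51, adjusted p 1.2e-08). Cytosolic CKM rose by 1.51 (adjusted p 0.01), whereas the brain form CKB fell from 225, 206, 202, 198 and 174 to 103, 111 and 49.4 CPM (log2 change -1.19, SE 0.27, adjusted p 0.00068; -0.93 without well 10, under the 2-fold limit). Myoglobin, MB, had 34.1, 20.3, 18.5, 17.96 and 39.5 CPM and then 33.5, 49.3 and 85.4 CPM (log2 change 1.10, adjusted p 0.034). Well 1 overlapped day 9, and the call did not hold without day 30 well 10 (adjusted p 0.31) or well 3 (0.052) or without day 9 well 2, 3 or 4 (0.073, 0.074 and 0.079). CKMT1A was called at 2.08, a call lost without well 10 (adjusted p 0.24), and it shares near-identical sequence with CKMT1B.

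Small heat shock proteins, chaperones that shield myofibrils and the cytoskeleton, were the list with the largest share of members called higher, 6 of 7, and a median of 3.08. HSPB3 (ENSG00000169271, chromosome 5, 54455601 to 54456384) had 1.099, 0.6397, 0.669, 0.846 and 2.35 CPM at day 9 and 117, 130.0 and 185 CPM at day 30 (log2 change 7.02, SE 0.41, adjusted p 3.2e-15). The 3 day 30 wells lay close together, and leaving out any one gave changes of 7.14, 7.08 and 6.77. HSPB7, a heart-enriched member, rose from 220.3, 138, 209.9, 184 and 309 to 1572, 2525 and 1826 CPM (log2 change 3.22, SE 0.35, adjusted p 4.9e-09). CRYAB, which holds desmin filaments in order, rose from 27.6, 12.1, 27.5, 24.9 and 51.3 to 286, 176 and 264 CPM (log2 change 3.08, SE 0.32, adjusted p 1.8e-09). All 3 genes were separated between the days. HSPB1 rose by 2.12 (adjusted p 1e-07), HSPB6, a low-level gene, by 4.43 (adjusted p 3.2e-06) and HSPB8 by 1.46 (adjusted p 0.0048), the latter 0.95 (adjusted p 0.099) without well 3. HSPB2, which shares a promoter region with CRYAB on the opposite strand, did not pass at 10.5 to 32.3 CPM and 8.98 to 17.7 CPM (log2 change -0.52, adjusted p 0.5).

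HSPB3 and HSPB7 were higher in every day 30 well, and the 100 bases before their RefSeq start sites (GRCh38.p14, 5′ to 3′ along the gene) are shown with the TATA box letters TATAAA and, in HSPB3, the MCAT letters CATTCC in capitals. MCAT is the site read by TEAD factors in muscle genes. RefSeq starts can lie at other bases than the GENCODE starts of the gene coordinates given here, and the HSPB3 and HSPB7 windows lie largely inside the GENCODE genes.
HSPB3 (chr5:54455599-54455698, plus strand): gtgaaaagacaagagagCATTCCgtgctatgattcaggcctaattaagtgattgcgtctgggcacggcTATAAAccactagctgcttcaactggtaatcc
HSPB7 (chr1:16018044-16018143, minus strand): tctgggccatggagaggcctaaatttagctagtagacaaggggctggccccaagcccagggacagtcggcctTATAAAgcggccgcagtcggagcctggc
In the 250 bases before the start, CATTCC or its reverse complement stood in 2 of the 5 risen small heat shock genes with an entry (HSPB3 and HSPB7), 3 of 11 risen sarcomere genes (ACTA1, MYPN and TNNT2) and 11.9% of 27305 promoters. TATAAA stood in 3 of those 5, in 2 of those 11 and in 11.1% of all. The GATA letters AGATAA stood in 4 of the 11 risen sarcomere genes, TNNI3 and TNNT2 among them, and in 9.37% of all. The fallen liver-type genes described below held the same letters, AGATAA in 4 of 15 (26.7%) and CATTCC in 3 of 15 (20.0%). These matches describe letters only, and no search string contains another.

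Of 26 replication and mitosis genes 8 fell, all of them acting in G2 or mitosis, and 1 rose, with a median of -0.58. The falls numbered 3, 5 and 8 without day 30 well 1, 3 and 10, 3 with a variance per group, 10 with a replicate block and only 1 on TPM + 1, where AURKB, CCNB2 and PLK1 were not called. CDC20, which drives exit from mitosis, had 45.2, 44.6, 40.2, 34.8 and 42.8 CPM at day 9 and 11.1, 22.3 and 11.01 CPM at day 30 (log2 change -1.48, SE 0.34, adjusted p 0.00088). AURKB fell by 1.55 on the log2 scale (adjusted p 0.017), CCNB2 by 1.42 (adjusted p 0.0054) and the kinase PLK1 by 1.41 (adjusted p 0.0034). Without day 30 well 1 those 3 calls were lost, at adjusted p 0.1, 0.057 and 0.05, and that of AURKB also without well 3 (0.089). The replication clamp PCNA did not pass, at 32.8, 42.6, 31.4, 37.1 and 50.4 CPM and then 76.8, 47.05 and 65.5 CPM (log2 change 0.70, adjusted p 0.1), and neither did MKI67 (log2 change -0.71, adjusted p 0.23). CCNE2, which acts at the entry into S phase, was the 1 that rose (1.08, adjusted p 0.014), a call lost without day 30 well 1 (0.077) or 10 (0.11) and, on the fold limit, without day 9 well 3 (0.99).

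The mitotic genes CCNB2 and PLK1 carry the CHR letters TTTGAA, a site through which cell cycle repressor complexes act, close to their start sites, shown in capitals (RefSeq, GRCh38.p14, the 100 bases before the RefSeq start). The PLK1 window lies wholly and the CCNB2 window partly inside the GENCODE gene.
CCNB2 (chr15:59105046-59105145, plus strand): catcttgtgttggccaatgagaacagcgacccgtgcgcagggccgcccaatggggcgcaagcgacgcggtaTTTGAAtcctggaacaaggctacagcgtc
PLK1 (chr16:23678789-23678888, plus strand): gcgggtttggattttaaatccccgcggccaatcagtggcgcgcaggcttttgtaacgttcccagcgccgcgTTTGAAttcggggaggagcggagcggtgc
TTTGAA or its reverse complement stood within 250 bases before the start in 4 of the 6 fallen genes of the list that have an entry (CCNB2, CDC20, PLK1 and TOP2A) and in 13.6% of 27305 promoters.

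Of 10 D cyclins and CDK inhibitors 5 rose and 1 fell. CDKN1A (p21), an arrest protein and p53 target, had 27.5, 29.9, 23.8, 32.2 and 43.1 CPM at day 9 and 225, 339.5 and 94.96 CPM at day 30 (log2 change 2.81, SE 0.32, adjusted p 1.6e-08), with no overlap. CDKN2A had 0 to 0.1302 CPM at day 9 and 0.602 to 1.48 CPM at day 30, and CDKN2C 0.228 to 0.303 and then 0.417 to 4.76 CPM. Both were called higher from very low levels, and CDKN2C lost its call without well 10 (log2 change 1.22, adjusted p 0.22). CDKN1C (p57), an imprinted inhibitor, fell from 115, 203, 64.9, 50.6 and 65.4 to 29.7, 27.04 and 27.1 CPM (log2 change -1.84, SE 0.44, adjusted p 0.0013). CCND2 changed by 0.54 (adjusted p 0.021), under the 2-fold limit.

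The heterochronic genes, which hold early developmental timing, gave 3 falls among 7 and 0 rises. LIN28A, which blocks maturation of let-7 microRNAs, had 408, 378, 449, 423 and 465 CPM at day 9 and 9.24, 8.52 and 14.4 CPM at day 30 (log2 change -5.32, SE 0.35, adjusted p 4.2e-14). LIN28B went from 113, 139.8, 98.00, 85.1 and 100.4 to 20.00, 4.49 and 21.6 CPM (log2 change -2.81, SE 0.40, adjusted p 8.9e-07) and the chromatin protein HMGA1 from 428, 469, 558, 498 and 578 to 75.3, 95.2 and 91.9 CPM (log2 change -2.53, SE 0.18, adjusted p 1.8e-13). Each of these was separated between the days in every well. HMGA2, a let-7 target, had not passed by day 30, at 168, 187, 169, 120.4 and 201 CPM and then 158, 60.2 and 155 CPM (log2 change -0.45, adjusted p 0.21), and had a mean of 29.6 CPM at day 90. IGF2BP3 changed by -0.89 (adjusted p 1.3e-05), under the 2-fold limit. In the pluripotency list 4 of 9 fell, led by ZFP42 (20.3 ± 4.17 to 1.49 ± 0.637 CPM, SD, n = 5 and n = 3, log2 change -3.77, adjusted p 2.5e-12), DPPA4 (-3.28, adjusted p 5.2e-08; -3.88 without well 10) and the DNA methyltransferase DNMT3B (-2.18, adjusted p 1.2e-12). The core factors were already low at day 9. POU5F1 had 1.18 to 4.66 CPM at day 9 and 1.06 to 4.92 CPM at day 30, NANOG 0.163 to 0.607 and 0.163 to 0.859 CPM, and SOX2 0.741 to 2.34 and 0 to 2.499 CPM, with well 10 the highest of day 30 for all 3.

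Liver-type and endoderm genes had the largest share of members called lower of any list, 22 of 25, with 0 higher and a median of -4.41. APOB (ENSG00000084674, chromosome 2, 21001429 to 21044073) had 267, 897, 339, 144 and 74.6 CPM at day 9 and 1.63, 11.2 and 1.33 CPM at day 30. All day 30 wells were below all day 9 wells, well 3 least (log2 change -6.16, SE 1.10, adjusted p 3.7e-05), and the change was -7.84 without that well and -5.42 without day 9 well 2. AFP, the fetal plasma protein, had 1217, 4221, 917, 175 and 244 CPM at day 9 and 20.6, 209 and 9.45 CPM at day 30. Day 9 well 2 was the highest by far and day 30 well 3 overlapped the lowest day 9 well, so the change of -4.09 (SE 1.42, adjusted p 0.025) did not pass without day 9 well 2 (adjusted p 0.085) or day 30 well 1 (0.092) or 10 (0.094) and was -6.50 without well 3. The factors that define this tissue fell with its products. FOXA2 had 26.2, 21.98, 35.1, 31.9 and 17.2 CPM at day 9 and 0.489, 0.509 and 0.3905 CPM at day 30 (log2 change -5.80, SE 0.54, adjusted p 1.5e-10), and HNF4A fell by 4.44 on the log2 scale (adjusted p 0.00017; -5.38 without well 3). AHSG, a fetal liver glycoprotein, changed by -5.51 (adjusted p 0.0029, with -3.76 without day 9 well 2 and -7.97 without day 30 well 3). With a variance per group neither HNF4A (adjusted p 0.1) nor AHSG (adjusted p 0.56) was called. ALB did not pass, at 5.65, 12.6, 4.68, 3.19 and 1.45 CPM and then 1.02, 20.7 and 0.156 CPM, high in well 3 only, and nor did SOX17 (log2 change -0.09, adjusted p 0.89; -1.31 and 0.026 without well 3).

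Summed over the list, these genes held 1289 to 10170.4 CPM at day 9 and 41.9 to 505 CPM at day 30. In bulk RNA fewer cells of a type and less RNA per cell cannot be told apart. With a variance per group, which widens the error for uneven wells, 8 of the 25 were called, and without day 30 well 1, 3 or 10 the falls numbered 18, 23 and 19. On TPM + 1, 15 of the 23 members tested fell. The 100 bases before the start of APOA2, the most strongly fallen member, and of FGB, the fibrinogen beta chain, are given with the letters of a FOXA site (TGTTTAC, here as its reverse complement) in the former and an HNF1 arm (GTTAAT, likewise) in the latter in capitals (RefSeq, GRCh38.p14).
APOA2 (chr1:161223629-161223728, minus strand): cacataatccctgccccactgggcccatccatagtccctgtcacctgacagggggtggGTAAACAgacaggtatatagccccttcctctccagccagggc
FGB (chr4:154562880-154562979, plus strand): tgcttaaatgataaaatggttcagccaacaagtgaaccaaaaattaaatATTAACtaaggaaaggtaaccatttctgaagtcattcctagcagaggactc
APOA2 had 186, 391, 169.8, 82.6 and 98.3 CPM at day 9 and 0.733, 3.43 and 0.625 CPM at day 30 (log2 change -6.81, SE 0.91, adjusted p 3e-07; -8.07 without well 3), and FGB fell from 291 ± 243 to 11.9 ± 16.5 CPM (SD, n = 5 and n = 3, log2 change -4.59, adjusted p 0.0015; -6.85 without day 30 well 3 and -3.96 without day 9 well 2). TGTTTAC stood in 1 of 15 fallen members with an entry and in 2.98% of all promoters, and GTTAAT in 3 of 15 (AFP, FGA and FGB) and in 6.22% of all.

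Endothelial genes fell in 12 of 16 cases, with 0 higher and a median of -2.38. With a variance per group 8 fell, and without day 30 well 1, 3 or 10 the falls numbered 9, 14 and 9. On TPM + 1, 7 of the 11 members tested fell. PECAM1, the usual surface marker of this cell type, was not among them. It had 24.7, 22.6, 25.6, 24.7 and 21.3 CPM at day 9 and 1.91, 20.3 and 2.73 CPM at day 30 (log2 change -1.51, SE 0.62, adjusted p 0.06). Wells 1 and 10 were far below day 9 while well 3 kept nearly the day 9 level, and without well 3 the change was -3.37 (adjusted p 0.00051). DESeq2, the fit with lane as a term and limma on TPM + 0.1 also called it lower. CDH5, the junction cadherin of endothelium, had 57.7, 51.4, 62.96, 61.9 and 37.3 CPM at day 9 and 3.38, 14.4 and 1.95 CPM at day 30 (log2 change -3.03, SE 0.53, adjusted p 3e-05; -4.32 without well 3). VWF, the clotting factor stored in endothelial granules, fell from 12.4, 17.04, 11.95, 12.98 and 7.36 to 0.244, 0.834 and 0.859 CPM (log2 change -4.31, SE 0.51, adjusted p 3.1e-08). Both were separated between the days, again with well 3 above the other 2 or level with the highest. The VEGF receptor KDR fell by 2.90 on the log2 scale (adjusted p 1e-06; -3.72 without well 3), PLVAP by 2.94 (adjusted p 0.00015; -4.36 without well 3) and the angiopoietin receptor TEK by 2.86 (adjusted p 0.00022). FLT1 did not reach 2-fold (log2 change -0.98, adjusted p 0.011; -1.55 without well 3). The list summed to 520.2 to 797 CPM at day 9 and 87.4 to 286 CPM at day 30, the highest of these in well 3.

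Blood genes were near the detection floor in most wells. Of 9 tested 4 fell and 1 rose. HBE1, the embryonic globin, had 3.18, 13.4, 2.04, 1.399 and 0.984 CPM at day 9 and 0 counts in all 3 day 30 wells. The fall was at least 17.9-fold, taking 3 counts in the shallowest day 30 library, 0.234 CPM, as the floor, and at least 8.12-fold without day 9 well 2. RUNX1, a factor of blood formation that other cells also express, rose from a day 9 range of 1.21 to 1.95 CPM to 5.13, 29.9 and 3.202 CPM at day 30 (log2 change 3.18, SE 0.60, adjusted p 7.2e-05), and by 1.57 (adjusted p 0.043) without well 3. PTPRC, the marker of all white blood cells, was at 0 to 0.118 CPM at day 9 and 0 to 0.234 CPM at day 30.

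**Figure D4:**
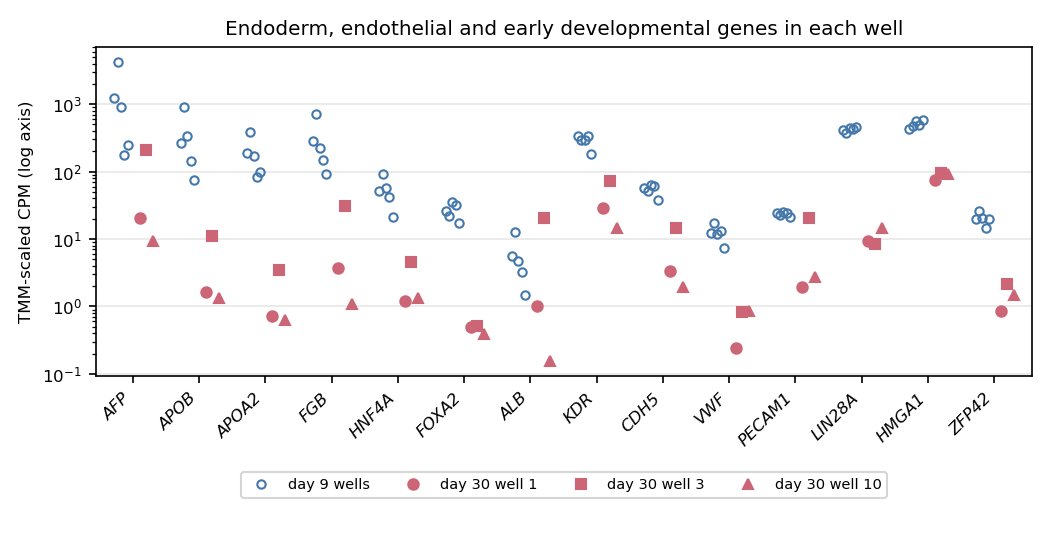
TMM-scaled CPM on a log axis for 14 liver-type, endothelial and early developmental genes, open blue circles for the 5 day 9 wells and filled red symbols for the 3 day 30 wells (circle well 1, square well 3, triangle well 10). APOA2, FOXA2, CDH5, VWF and LIN28A are separated between the days, while ALB overlaps and PECAM1 comes close to the day 9 level in well 3.

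Smooth muscle genes rose in 5 of 10 cases and fell in 0. ACTG2, the enteric actin, had 0.796, 0.774, 0.904, 1.07 and 1.58 CPM at day 9 and 36.4, 12.3 and 20.1 CPM at day 30 (log2 change 4.48, SE 0.85, adjusted p 8.3e-05), and CNN1 (calponin) 69.5, 48.7, 77.5, 97.6 and 149 and then 561, 1189 and 245 CPM (log2 change 2.91, SE 0.38, adjusted p 2.1e-07; 2.18 without well 3). Both were separated between the days. MYH11, the myosin that defines mature smooth muscle, was high in well 1 only, at 117, 15.8 and 12.96 CPM against 3.06 to 15.5 CPM at day 9. Its change was 2.28 (adjusted p 0.00052) with that well and 0.51 (adjusted p 0.43) without it. TAGLN was called at 1.59 (adjusted p 0.0059) but not without well 1 (0.069). ACTA2 did not pass, at 259 to 674 CPM and 207 to 432 CPM. Early heart muscle also expresses several of these genes.

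Epicardial and fibroblast genes rose in 4 of 17 cases and fell in 2. UPK1B, an epicardial surface protein, had 0.195 to 0.599 CPM at day 9 and 4.64, 10.3 and 3.83 CPM at day 30 (log2 change 3.88, SE 0.50, adjusted p 1.6e-07). FAP, a protease of activated fibroblasts, had 0 to 0.0786 CPM and then 1.63, 3.61 and 1.796 CPM (log2 change 5.82, SE 0.80, adjusted p 5.9e-07), and both were called higher. The defining fibroblast markers did not pass here, with COL1A1 at 0.71 (adjusted p 0.13), DCN at 1.47 (adjusted p 0.18) and POSTN at 2.15 (adjusted p 0.052). POSTN had 12.5, 65.4, 7.47, 10.5 and 11.1 CPM at day 9 and 53.1, 134 and 98.4 CPM at day 30, so that day 9 well 2 alone reached the day 30 range. POSTN was called higher without that well (log2 change 3.19, adjusted p 0.0068), by DESeq2 (adjusted p 0.046), with RLE scaling, other filters, the 8 wells alone, the replicate block and on TPM, and DCN without that well (log2 change 2.32, adjusted p 0.044). FN1, fibronectin, had 9056, 7857, 15208, 16047 and 6636 CPM and then 2447, 7015 and 1477 CPM (log2 change -1.59, SE 0.35, adjusted p 0.00052), with well 3 above day 9 well 10, and changed by -2.48 without it. The mesoderm receptor PDGFRA fell by 1.62 on the log2 scale (adjusted p 0.003).

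In the elastic fibre and matrix list 5 of 15 rose and 2 fell. MGP, an inhibitor of calcification, had 0, 0.202, 0.236, 0.163 and 0 CPM at day 9 and 39.1, 38.9 and 7.58 CPM at day 30 (log2 change 7.79, SE 0.84, adjusted p 3.5e-09). MFAP4, a microfibril protein, rose from 20.4, 35.6, 14.1, 9.01 and 11.5 to 58.2, 111 and 110.0 CPM (log2 change 2.36, SE 0.50, adjusted p 0.00035). FBLN2 fell by 2.04 on the log2 scale (adjusted p 0.001) and FBLN1 by 1.57 (adjusted p 0.00015). ELN, elastin, did not pass, at 3.21 to 6.69 CPM at day 9 and 1.63 to 3.202 CPM at day 30 (adjusted p 0.094), beside 131 ± 105 CPM (SD, n = 3) at day 90. Of 10 neural genes, most near the floor, 2 rose and 1 fell. STMN2, a microtubule regulator of nerve cells, had 1.08 to 1.97 CPM at day 9 and 15.1, 8.89 and 23.3 CPM at day 30 (log2 change 3.15, SE 0.34, adjusted p 3.5e-09), and MAP2 rose by 2.06 (adjusted p 0.00067). ELAVL4 was called lower, at 0.3703 to 1.399 CPM and then 0, 0 and 0.234 CPM, and TUBB3 did not pass (log2 change 0.54, adjusted p 0.3).

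Many calls among stress and immediate early genes rested on a single well. Of 14 tested genes of the amino acid response 5 rose and 1 fell, and of 11 immediate early genes 5 rose. Without day 30 well 3 the former had 2 higher and 1 lower, and the latter 0 higher and 4 lower. CHAC1, which breaks down glutathione, had 8.95, 11.1, 7.12, 6.87 and 5.43 CPM at day 9 and 11.3, 127 and 3.83 CPM at day 30. Well 3 alone was high while wells 1 and 10 stayed near the day 9 range, and the change went from 2.59 (adjusted p 0.0002) to -0.06 (adjusted p 0.94) without well 3. ATF3, a stress-induced factor, had 20.4, 20.4, 20.4, 24.1 and 33.4 CPM and then 16.6, 258 and 35.3 CPM, with 2.12 (adjusted p 0.0026) falling back to 0.12 (adjusted p 0.89). SESN2 went from 1.33 to -0.09, JUN from 1.81 to 0.54 and NR4A1 from 1.55 to -1.32 without well 3, all uncalled there (adjusted p 0.85, 0.37 and 0.066). NR4A1 was also not called without day 9 well 1, 2, 3 or 10 (adjusted p 0.077, 0.077, 0.070 and 0.056). EGR2 was 2.19 (adjusted p 0.012) and 1.90 (adjusted p 0.061) without well 3, and FOS did not pass (log2 change -0.55, adjusted p 0.46) but was called lower without it (-1.84, adjusted p 0.022). STC2, a secreted stress glycoprotein, rose in every well, from 35.8, 34.1, 39.9, 40.1 and 37.00 to 128, 98.8 and 65.4 CPM (log2 change 1.38, SE 0.27, adjusted p 0.00015). PHGDH, which starts serine synthesis, fell by 1.12 on the log2 scale (adjusted p 0.0082), lost without day 30 well 10 (0.089) and, on the fold limit, without day 9 well 2 (-0.99).

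Well 3 had an RNA integrity number of 10 and was the only one of the 8 wells in lane 3, so lane 3 and this well cannot be told apart. The same well was also highest of day 30 for XIRP1, CSRP3, RUNX1, PECAM1 and the liver-type genes named above. With lane as a term over all 44 libraries, CHAC1 (2.05), ATF3 (1.98), XIRP1 (1.86) and JUN (1.52) stayed called. SESN2 (0.99) and NR4A1 (1.3) were not called there. The part that handling or cell composition had in the values of well 3 was not tested, nor was lane for that well alone.

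**Figure D5:**
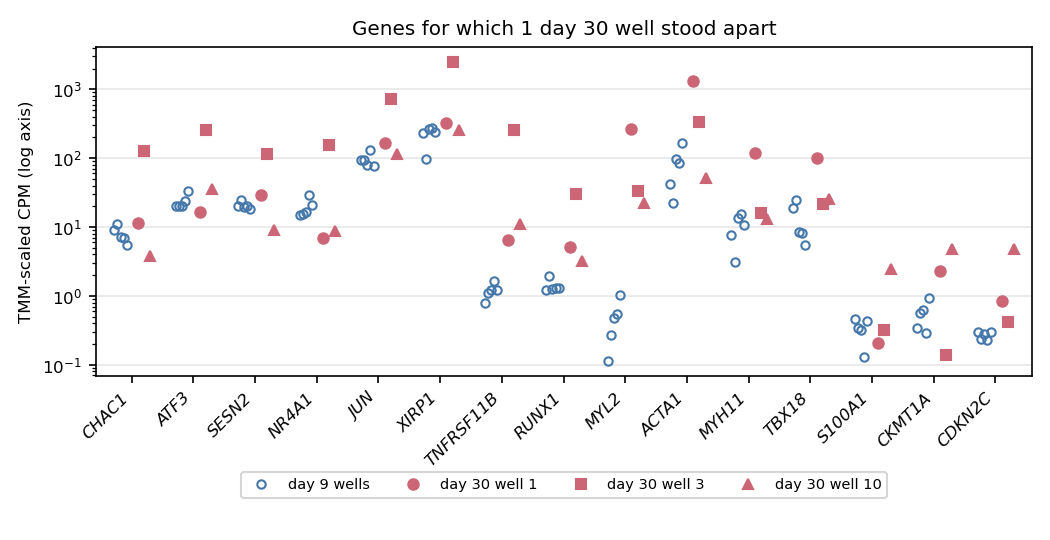
TMM-scaled CPM on a log axis for 15 genes for which 1 day 30 well stood apart, open blue circles for the 5 day 9 wells and filled red symbols for the 3 day 30 wells (circle well 1, square well 3, triangle well 10). Well 3 is highest for CHAC1, ATF3, SESN2, NR4A1, JUN, XIRP1, TNFRSF11B and RUNX1, well 1 for MYL2, ACTA1, MYH11 and TBX18, and well 10 for S100A1, CKMT1A and CDKN2C.

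Of 14 regulators of alternative splicing 5 rose and 4 fell. MBNL1, which promotes adult splice forms, had 24.6, 28.8, 26.98, 22.00 and 25.2 CPM at day 9 and 76.7, 244 and 83.4 CPM at day 30 (log2 change 2.40, SE 0.25, adjusted p 2.5e-09; 1.64 without well 3). RBM24, a muscle splicing factor, rose by 1.93 (SE 0.27, adjusted p 8.1e-07). ESRP1, the epithelial splicing factor, fell from 35.1, 38.6, 51.04, 43.2 and 36.7 to 5.701, 7.502 and 5.31 CPM (log2 change -2.72, SE 0.36, adjusted p 2.9e-07), MBNL3 fell by 2.5 on the log2 scale (adjusted p 0.0068) and PTBP1, a repressor of neural and muscle exons, by 1.33 (adjusted p 5.2e-07). MBNL1, ESRP1 and PTBP1 did not overlap between the days.

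Of 17 cholesterol and lipid synthesis genes 1 rose, the regulator SREBF1 (1.28, adjusted p 0.00037; 0.77 without well 3, under the 2-fold limit), and 1 fell, the fatty acid synthase FASN (-1.08, adjusted p 0.00099; -0.73 without well 10, under the 2-fold limit). Of 10 genes that insulin represses 1 fell, KLF15, from 14.1, 15.4, 14.9, 12.04 and 15.96 to 3.95, 2.96 and 7.497 CPM (log2 change -1.61, SE 0.27, adjusted p 1.1e-05), with no overlap. Over all genes 9.69% rose and 9.25% fell, so neither of these 2 lists stood out. Of 8 tested metallothioneins 2 rose. MT1E had 0.275 to 1.01 CPM at day 9 and 1.87 to 3.42 CPM at day 30 (log2 change 2.10, adjusted p 0.0081), and MT2A did not pass (log2 change 0.21, adjusted p 0.82).

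Across all genes, the 12 largest rises and 12 largest falls were named among called protein-coding genes with a mean of at least 10 CPM in the higher group and no overlap between the days in CPM or TPM, a rule that 496 risen and 402 fallen genes met. Among the rises, MYL2, MGP and HSPB3 are described above. BRINP3, a secreted or membrane protein known best from the nervous system, rose most, from 0, 0.0337, 0.0393, 0 and 0.0856 CPM to 34.6, 18.8 and 44.8 CPM (log2 change 9.88, SE 0.60, adjusted p 4.6e-15). Its day 9 total was 4 counts over 5 wells, and its means at days 11, 14, 20 and 90 were 0.127, 0.383, 4.38 and 62.97 CPM. The orphan receptor GPR22 rose from 0.0379, 0.0673, 0.197, 0 and 0.0428 to 23.6, 11.99 and 31.4 CPM (log2 change 8.28, SE 0.53, adjusted p 2.4e-14), with means of 0.114, 0.614, 4.49 and 60.5 CPM at those days. MLIP, a lamin-interacting protein of muscle, rose from 0.9099, 1.11, 0.629, 0.651 and 0.941 to 82.4, 78.4 and 119 CPM (log2 change 6.77, SE 0.33, adjusted p 2e-17), with the day 30 wells close together. Its mean was already 4.06 CPM at day 11.

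NRAP, a scaffold of assembling myofibrils, rose from 0, 0.101, 0.197, 0 and 0.257 to 10.9, 71.3 and 7.42 CPM (log2 change 8.09, SE 0.81, adjusted p 6.6e-10) and COL17A1, a collagen of hemidesmosomes, from 0.0758, 0.269, 0.197, 0.325 and 0.128 to 20.2, 139 and 27.4 CPM (log2 change 8.22, SE 0.69, adjusted p 1.3e-11). In both well 3 was highest, and their changes were 6.38 and 6.83 without it. ASPN, a small matrix proteoglycan, rose to 5.09, 15.7 and 16.9 CPM (log2 change 6.95, SE 0.72, adjusted p 2.9e-09) and SCG2, a granule protein of secretory cells, to 26.4, 30.6 and 35.5 CPM (log2 change 6.52, SE 0.58, adjusted p 4.7e-11). TNFRSF11B, the decoy receptor osteoprotegerin, had 0.796, 1.11, 1.22, 1.63 and 1.198 CPM at day 9 and 6.52, 255 and 11.01 CPM at day 30. Well 3 carried most of it, and the change of 6.25 became 2.87 (adjusted p 1.2e-05) without that well. MYH4, a fast skeletal myosin, rose from 0.303, 0.135, 0.157, 0.1302 and 0.0428 to 11.5, 15.8 and 23.8 CPM (log2 change 6.74, SE 0.57, adjusted p 3.7e-11). Its mean was 26.9 CPM at day 20 and 0.0605 CPM at day 90, the latter back near its day 9 level. It lies in a cluster of closely similar myosin genes, which makes its reads uncertain.

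Most of the 12 largest falls were products of liver-type endoderm. APOA2, APOB and FOXA2 are described above. The plasma proteins PLG and F2, the bile acid reductase AKR1D1 and the detoxifying enzyme GSTA2 changed by -6.25, -6.21, -6.63 and -6.75 (adjusted p 3.4e-05, 5.6e-11, 3.3e-05 and 0.00053). F2 had 31.01, 39.8, 37.3, 40.7 and 32.00 CPM at day 9, even among those wells. At day 30 it had 0.285, 0.8799 and 0.234 CPM, highest in well 3 and from only 29 counts in total. The Wnt antagonist SOST fell most, from 59.7, 44.1, 58.9, 80.6 and 56.7 to 0.448, 0.0926 and 0.937 CPM (log2 change -7.06, SE 0.78, adjusted p 5.6e-09), with means of 21.1, 14.3 and 2.07 CPM at days 11, 14 and 20. CRHBP, which binds the stress hormone CRH, fell from 169, 126, 132, 69.6 and 69.00 to 1.303, 1.297 and 1.48 CPM (log2 change -6.38, SE 0.60, adjusted p 1.5e-10). CGA, the alpha chain shared by several glycoprotein hormones, fell from 26.6, 15.6, 61.03, 66.3 and 61.6 to 0.204, 0.787 and 0.234 CPM (log2 change -6.76, SE 0.96, adjusted p 9.5e-07), with a mean of 7.95 CPM at day 11. SPTSSB, a subunit of sphingolipid synthesis, changed by -6.58 (adjusted p 4.5e-09). The genes named in these paragraphs on the largest changes were all called without each of the 8 wells in turn, but with a variance per group APOA2, APOB, GSTA2, AKR1D1 and PLG were not. Leaving out 1 well moved BRINP3 to 10.48 (day 9 well 10), GPR22 to 9.07 (day 9 well 3), SOST to -7.75 (day 30 well 10), CGA to -7.72, PLG to -7.46 and F2 to -7.07 (day 30 well 3), GSTA2 to -5.89 and PLG to -5.33 (day 9 well 2), and SPTSSB to -5.93 or -7.20 (day 30 well 1 or 10).

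Levels at day 90, in 3 further wells, are given beside those of day 30, and the 2 steps are not compared with each other because they share the day 30 wells. MYH7 had a mean of 16278 ± 17595 CPM, MYL2 266 ± 49.3 CPM, TNNI3 361 ± 86.7 CPM and CD36 119 ± 33.98 CPM at day 90, against 7465 ± 3963, 107 ± 137, 67.9 ± 32.7 and 24.6 ± 22.4 CPM at day 30 (all SD, n = 3). For day 90 against day 30 the adjusted p was 0.54, 0.16, 0.0083 and 0.00075, so TNNI3 and CD36 passed and MYH7 and MYL2 did not. PECAM1 and CDH5 had 0.195 ± 0.134 and 0.303 ± 0.204 CPM there (adjusted p 0.00022 and 0.00013), and APOB and LIN28A 2.64 ± 2.07 and 5.95 ± 3.53 CPM (adjusted p 0.64 and 0.087). For day 90 against day 30, 1168 of 22955 genes (5.09%) were called.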

How the data were processed

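RNA of whole wells was sequenced, and 2 gene tables cover 44 libraries and 60499 genes. Per the submitters' processing notes the authors used cutadapt, STAR 2.5.2b, RSEM 1.2.31 and hg38. The deposited estimated counts (expected counts from RSEM, 93.8% whole) were rounded. The deposited TPM values were used for ratios and alternatives. The RNA integrity score and lane are as deposited by the authors, with no further step stated. Symbols and types came from GENCODE 29, which matched 56769 of the genes and left 3730 unmatched.

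Genes passing filterByExpr over 12 groups were scaled by TMM and fitted in edgeR 4.0.16 (R 4.3.3). The fit had 1 mean per group over all 44 libraries. In a test on simulated data beforehand, 34.3% of 2-fold and 95.5% of 4-fold changes were called. It gave all groups the same spread per gene, so it does not cover the wider spread of the day 30 wells. Calls needed an adjusted p under 0.05 and a log2 change of at least 1. Alternatives used limma 3.58.1 and DESeq2 1.42.0. Ratios were tested by two-sided exact permutation over 56 splits (scipy 1.17.1), adjusted over 5 tests. Depth was 11715812 to 31040870 counts in the compared wells. List examples were the largest called changes and defining uncalled members. The 12 largest rises and falls were named as stated in the text, and a few genes that these rules reach are not reported here. The members and lists were chosen with earlier results of these data known.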

Additional observations from a re-analysis of the deposited data

Results flagged for a closer look

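Among the 5 day 9 wells, 178 genes and ratios were searched for a well whose gap to its nearest neighbour exceeded 0.71 of the whole range, and 16 showed one. Chance gives about 1 in 20 such gaps for normally distributed values. CPM was taken unlogged, so that rate is only a rough guide here. Genes of one tissue share their wells, so the 16 are not independent.

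Well 2 of day 9 was high for liver-type products, with 4221 CPM of AFP, 239 CPM of AHSG, 71.9 CPM of PLG and 31.5 CPM of GSTA2. The same well was high for HBE1 at 13.4 CPM, RUNX1 at 1.95 CPM, DCN at 35.7 CPM, POSTN at 65.4 CPM and DSG2 at 287 CPM. It was low for XIRP1 at 98.5 CPM and STMN2 at 1.08 CPM.

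Well 10 of day 9 was high for LPL at 52.3 CPM, ISL1 at 27.6 CPM, CKMT2 at 3.42 CPM and HSPB3 at 2.35 CPM. Well 4 of day 9 was high for TUBB3 at 51.0 CPM.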

How the results depend on the processing

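The 4347 calls became 3348 with the 8 wells alone and 2239 with a variance per group. They became 1442 and 2001 on TPM with 1 or 0.1 added, and 7333 without the fold limit. The 51.2% that were higher became 54.5% with RLE scaling, 53.4% without a count filter, 57.6% with a variance per group, 66.5% and 61.9% on TPM, and 48.6% with lane as a term. Leaving out 1 well gave 3940 to 4584 calls, with 46.1 to 55.1% higher (46.1% without day 30 well 10, 55.1% without day 30 well 1). The cause of these moves was not tested.

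Same-numbered wells of the 2 days correlated at 0.161, -0.176 and -0.104 in their deviations from the mean of their day. Differently numbered wells correlated at -0.25 to 0.326. Deviations from means of so few wells cannot decide whether the numbers pair the wells. A replicate block gave 4144 calls, 48.1% higher.

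The TNNI3 to TNNI1 difference was 0.211 from CPM and -0.239 to 0.179 with 1 well left out. The mitochondrially encoded share differed by 1.67 points over protein-coding counts (adjusted p 0.0893). Over single wells left out, S100A1 ranged from -0.35 to 1.99, CHAC1 from -0.06 to 3.10, SESN2 from -0.09 to 1.79 and NR4A1 from -1.32 to 2.05. Of 139 named called genes, 95 held with a variance per group, 97 of 122 on TPM + 1 and 123, 123 and 125 without day 30 well 1, 3 and 10. Of 34 uncalled named genes, at most 3 were called under any alternative with all wells (POSTN, PECAM1, MYL4 or FLT1), and 5 without day 30 well 3 (MYL4, SOX17, PECAM1, FLT1 and FOS), 2 without day 30 well 1 (KCNJ2 and NPPA), 3 without day 9 well 10 (MYL4, KCNJ2 and FLT1) and 3 without day 9 well 2 (FLT1, DCN and POSTN). Calls lost on TPM + 1 included MYH6, MYOM2, FKBP1B, DSG2, DSC2, ISL1, NR2F1, AURKB, CCNB2, PLK1, VWF, FN1, KLF15, FASN and MBNL3. The 44 calls lost with a variance per group included MYOM2, MYH6, TNNI3, TNNI1, TTN, S100A1, KCND3, XIRP1, SHOX2, TBX18, NR2F1, ISL1 and AGTR1. Others were LPL, ENO3, CKMT1A, CKM, MB, AURKB, CCNE2, CDKN2C, CDKN1C, APOA2, APOB, AHSG, AFP, FGB, HNF4A, VWF, HBE1, TAGLN, PDGFRA and MAP2. The rest were ELAVL4, CHAC1, ATF3, SESN2, EGR2, JUN, NR4A1, MBNL3, GSTA2, AKR1D1 and PLG. The replicate block also called PECAM1 and POSTN, and ended the calls of S100A1, SHOX2, NR2F1, MB, CCNE2 and NR4A1. Depth limits genes near the floor, where 3 counts were 0.234 CPM in day 30 well 10.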
